A study of Arabidopsis thaliana with 8 samples.

Results

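The precursors of miR173, miR390 and miR391 were examined, which are the primary RNAs of the Arabidopsis microRNAs (miRNAs) grouped here as triggers of trans-acting small interfering RNAs. They were chosen by family number in the precursor column of the deposited files, whatever the letter. No measured value entered that rule, but earlier results of these data were known when the choice was made. This gave 4 of the 108 precursors in the files, named miR173, miR390a, miR390b and miR391. Together they held 10479 of 2390537 counts, or 0.438%, of which 8769 were tags of 26 nt or more and 1710 were tags of 18 to 25 nt.

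The assay was SPARE, in which the 5′ ends left when a MIRNA precursor is cut are ligated to an adapter, copied with precursor-specific primers, amplified and sequenced. A tag is the sequence read from such an end, and its count is the number of reads with that sequence. Libraries were made from total RNA of whole 10-day-old Arabidopsis thaliana seedlings grown in continuous light, with 2 libraries for each of 4 genotypes. These were wild type (Col) and plants labelled -/- for Fiery1, Hyl1 or Se, without a further allele name in the labels.

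Background on the genotypes and the miRNAs is as follows. HYL1, a double-stranded RNA-binding protein, and SE, a zinc-finger protein, work with the nuclease DCL1 that cuts miRNA precursors, and FIERY1 is a phosphatase without which the XRN exoribonucleases are inhibited. Trans-acting siRNAs form when a miRNA guides cleavage of a non-coding TAS transcript, the cut RNA is copied into double strands by RDR6, and DCL4 dices it at regular steps. In Arabidopsis, miR173 acts through AGO1 on TAS1 and TAS2, and miR390 acts through AGO7 on TAS3, whose siRNAs target auxin response factor transcripts. The files hold precursor tags alone, so the transcripts of FIERY1, HYL1 and SE and tissue markers were not measured, and the genotype labels could not be checked against them.

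The mature strands are shown to make clear which members share a guide sequence. They were read from the TAIR10.1 reference at the RefSeq annotation of each strand, 5′ to 3′, with the seed, bases 2 to 8, in capitals. The 5p strand is the one named as the guide in the families above.
miR173-5p: uUCGCUUGcagagagaaaucac
miR390a-5p: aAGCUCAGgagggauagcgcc
miR390b-5p: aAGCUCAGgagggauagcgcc
miR391-5p: uUCGCAGGagagauagcgcca
The 5p strands of miR390a and miR390b were identical in 21 of 21 bases and formed the only pair with a shared seed among the 4 members. Moved by 1 base against each other, miR390a-5p and miR391-5p matched in 16 of 20 bases, but their seeds differed. The strand of miR173 was annotated with 22 nt, and the other 5p strands with 21 nt.

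The annotated hairpins follow, with the 5p and 3p strands in capitals, because every result below is a position on them. The first base after the 3p strand, called the base-proximal end here, is where a fragment starts when the duplex has been cut off at the base of the stem. The first base of the 3p strand, the loop-proximal end, is where a fragment starts after a cut between the duplex and the loop.
miR173: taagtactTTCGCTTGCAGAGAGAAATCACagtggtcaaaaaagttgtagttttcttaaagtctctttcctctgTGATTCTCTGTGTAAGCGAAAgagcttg
miR390a: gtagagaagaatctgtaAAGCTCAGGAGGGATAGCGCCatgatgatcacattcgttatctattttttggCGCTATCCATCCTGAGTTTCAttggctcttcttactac
miR390b: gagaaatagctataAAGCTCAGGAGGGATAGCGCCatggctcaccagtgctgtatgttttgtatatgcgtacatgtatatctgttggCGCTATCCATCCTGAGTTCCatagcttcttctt
miR391: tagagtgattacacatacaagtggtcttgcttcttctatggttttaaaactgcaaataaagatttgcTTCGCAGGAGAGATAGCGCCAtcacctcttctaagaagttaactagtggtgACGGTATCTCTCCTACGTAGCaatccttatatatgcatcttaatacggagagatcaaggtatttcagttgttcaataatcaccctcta

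All 4 hairpins lie on the plus strand of TAIR10.1 and are annotated as primary transcripts of MIRNA genes. MIR173 (AT3G23125) spans chr3:8236153-8236254 with its base-proximal end at 8236248. MIR390a (AT2G38325) spans chr2:16061954-16062060 with that end at 16062044, and MIR390b (AT5G58465) spans chr5:23636947-23637066 with it at 23637054. MIR391 (AT5G60408) spans chr5:24293093-24293298 with it at 24293232. The hairpin of miR391 was the longest at 206 nt, against 102, 107 and 120 nt for the others, and its predicted fold had 47 paired bases below the duplex, against 6, 13 and 11. Between the duplex strands lay 44 nt in miR173, 31 in miR390a, 52 in miR390b and 30 in miR391.

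The closest ungapped matches of the guides in the annotated TAS genes are shown so that a reader can see what these miRNAs pair with. Each site is printed 5′ to 3′ on the strand of the TAS gene, with paired bases in capitals and unpaired or G-U wobble bases in lower case.
TAS1A, miR173, chr2:11722081-11722102, minus strand: GTGATTTtTCTCTaCAAGCGAA
TAS1B, miR173, chr1:18549660-18549681, minus strand: GTGATTTtTCTCaaCAAGCGAA
TAS2, miR173, chr2:16539991-16540012, minus strand: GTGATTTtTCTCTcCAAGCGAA
TAS3, miR390, chr3:5862099-5862119, plus strand: GGtGtTATCCtatCTGAGCTT
TAS3b, miR390, chr5:20134458-20134478, plus strand: GaCGCTATCttaCCTGAGCTT
The site of TAS1C, chr2:16537890-16537911, had the letters of the TAS1A site. The miR173 sites held 2 or 3 unpaired or wobble bases of 22. The TAS3 and TAS3b sites held 5 and 4 of 21, which in TAS3 included 4 wobble pairs. These are sequence matches, and no cleavage of TAS transcripts was measured here.

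Total counts per library ran from 35860 in hyl1 replicate 2 to 821562 in fiery1 replicate 2, and both fiery1 libraries were deeper than any other over tags of 26 nt or more. Levels are given as CPM, the counts of a precursor scaled to a total of 1000000 counts of the same length class in a library. The share of all counts in tags of 18 to 25 nt was 83.9% and 86.1% in the se libraries, 28.2% in hyl1 replicate 2, 29.5% in wild-type replicate 1 and between 1.19% and 4.05% in the other 4 libraries. Each precursor has its own primer, so levels are compared between genotypes and not between precursors. In RNA of whole seedlings, fewer cells that express a precursor and less of it per cell cannot be told apart. The labels do not say whether the 2 libraries of a genotype came from separate plants, so the tests measure the spread between libraries, which may be technical. Counting intervals below are exact two-sided 95% intervals. The limit given beside a count of 0 is instead 3 counts of the total, which is slightly lower than the upper bound of such an interval. Both cover counting error only, since the reads carry no molecular identifiers and many reads can stem from few molecules.

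The distinct tags of the members, 20 for miR173, 18 for miR390a, 4 for miR390b and 4 for miR391, all matched their locus exactly and nowhere else in the genome. Tags were 18 to 51 nt long. Short tags shared a last base in each precursor, downstream of the hairpin. That base was the end of 219 of 219 short counts of miR173, at 8236382, and of 1297 of 1298 short counts of miR390a, at 16062135. It was also the end of 57 of 57 short counts of miR390b, at 23637198, and of 136 of 136 of miR391, at 24293359. It lay 134, 91, 144 and 127 nt after the base-proximal end of miR173, miR390a, miR390b and miR391. Short tags therefore started 68 to 125 nt after the base-proximal end and could not report cuts at the duplex, while tags of 26 nt or more could.

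**Figure D1:**
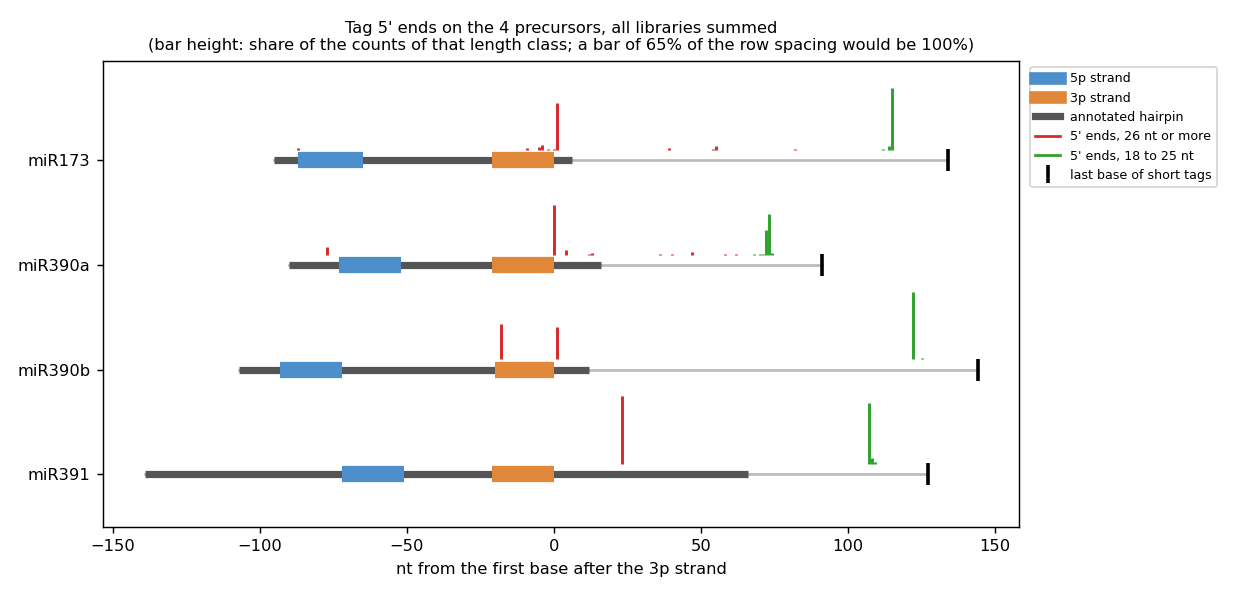
Positions of tag 5′ ends on the 4 precursors, with all 8 libraries summed, as nt from the base-proximal end on the x axis. Red bars are ends of tags of 26 nt or more and green bars those of 18 to 25 nt, with bar height the share of that length class. Red ends of miR173 and miR390a were highest at or next to 0, those of miR390b were split between -18 and 1, and the red end of miR391 was at 23, while green ends of all 4 stood just before the last base of short tags.

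Tags of 26 nt or more from the miR173 precursor, the source of the TAS1 and TAS2 trigger, were found in wild type and fiery1 and almost not in hyl1 and se. The wild-type libraries held 32 and 423 counts, or 566 and 3484 CPM. The fiery1 libraries held 994 and 2408 counts, or 2192 and 3029 CPM. The hyl1 libraries held 0 and 3 counts, or 0 and 116.5 CPM, and neither se library held a count.

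The levels of miR173 were, from high to low, 2611 ± 591 CPM in fiery1, 2025 ± 2060 in wild type, 58.25 ± 82.4 in hyl1 and 0 in se (mean ± SD, n = 2 each). Both fiery1 libraries lay between the wild-type libraries. Both hyl1 and both se libraries lay below both wild-type libraries, and hyl1 and se overlapped at 0. The pooled hyl1 level was 0.0166 times that of wild type (95% counting interval 0.0034 to 0.0487). By mean CPM, se was at least 37.3-fold below wild type, with a floor of 3 counts per library in place of 0. That wild-type mean rests mostly on replicate 2, at 3484 CPM. Replicate 1 had 566 CPM, against se floors of 71.98 and 36.51 CPM, so it alone bears out a smaller fold.

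None of these differences passed the test. The log2 fold change of miR173 against wild type was -0.22 ± 2.32 (SE) in fiery1 (edgeR, adjusted p = 0.939) and -5.07 ± 2.85 in hyl1 (edgeR, adjusted p = 0.304), and the se comparison, without counts in se, had an edgeR adjusted p of 0.217. DESeq2 gave miR173 an adjusted p of 0.00646 in se, within a range of 0.00646 to 0.379 over the alternatives tried. Without wild-type replicate 2 the fiery1 value changed sign, to 2.10, and without hyl1 replicate 1 the hyl1 value was -3.91. Without hyl1 replicate 2, the only hyl1 library left had no count of miR173, and the fitted value is no measured fold.

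For scale, edgeR tested 74 precursors over tags of 26 nt or more in each comparison. In fiery1 it called 15, or 20.3%, with a median log2 fold change of 1.34 over all tested precursors. That count was 40 with only the 2 genotypes in the fit, 0 with the replicate number as a block, and 0 to 2 with any of the 4 libraries left out. Of the members, 0 of the 2 that could be tested were called. In hyl1 it called 0 (0.00%), with 14 at an unadjusted p under 0.05 and 19 called by DESeq2. In se it called 0 (0.00%), with 16 at an unadjusted p under 0.05 and 21 called by DESeq2. The members miR390b and miR391 did not pass the filter on low counts, so their values below come without a test.

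**Figure D2:**
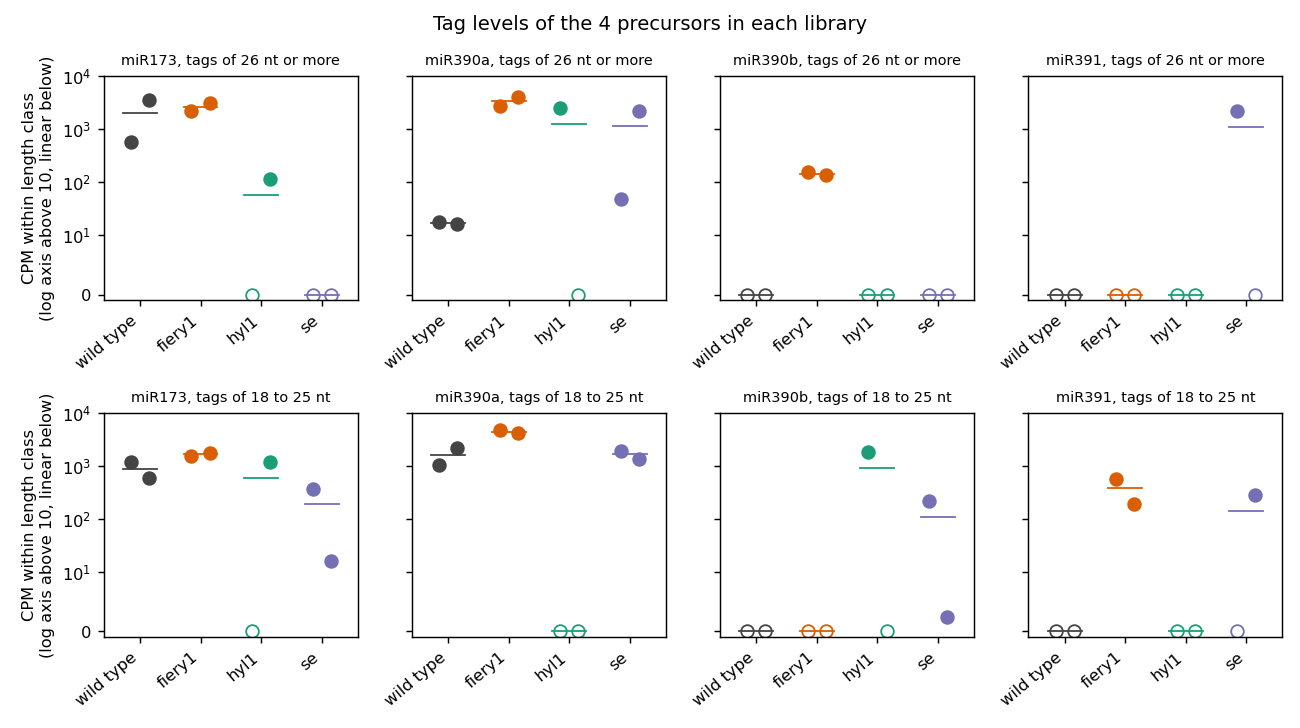
CPM of each of the 4 precursors by genotype, for tags of 26 nt or more (upper row) and of 18 to 25 nt (lower row), on an axis that is logarithmic above 10 and linear below. Each circle is a library, open where it held no count, and the line is the mean of 2 libraries. Tags of miR173 of 26 nt or more stood at 566 CPM or above in wild type and fiery1 and at 116.5 or below in hyl1 and se, and those of miR390b had counts in fiery1 alone.

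The wild-type miR173 ends of tags of 26 nt or more lay at a single position. All 32 and all 423 counts began at chr3:8236249, 1 nt after the base-proximal end. Other positions held 0 of 423 counts in replicate 2, which allows a share of up to 0.709%, and 0 of 32 in replicate 1, which allows up to 9.38%. The most counted of these tags is shown because it carries the wild-type signal, and its first 6 bases are the last bases of the annotated hairpin.
miR173 main tag, chr3:8236249-8236299: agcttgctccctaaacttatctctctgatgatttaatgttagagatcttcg
In the predicted fold of the hairpin, with a free energy of -42.6 kcal/mol, a cut before 8236249 leaves the 3p strand with 2 bases beyond the partner of the first 5p base. Whether such bases are paired below the duplex in the uncut fold was not examined, here or for the other members.

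In fiery1 the same position held most miR173 ends, with others added. Position 8236249 held 698 of 994 and 1525 of 2408 counts, or 70.2% and 63.3%. The fiery1 libraries had 14 positions each, 13 of them in both and 15 in either. Drawn down to 32 counts, the fiery1 libraries were expected to show 6.81 and 6.73 positions, and at 423 counts 12.8 and 12.1, against 1 in wild type at either depth. These expectations are at equal numbers of reads, and the numbers of molecules behind them are not known.

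Most of the added fiery1 ends fell in the 3p strand and downstream of the hairpin. Within the 3p strand they made up 10.6% and 20.5% of miR173 counts, led by offset -4 (8236244), with 4.12% and 9.84%, and offset -5 (8236243), with 1.91% and 5.32%. Downstream of the hairpin they made up 15.3% and 12%, led by 3 positions. These were 8236287 with 5.84% and 1.25%, 8236302 with 5.33% and 0.831%, and 8236303 with 2.11% and 8.26%. The base-proximal end itself, 8236248, held 2.82% and 0.789%, and 8236252 held a single count in replicate 2. The first base of the 5p strand, 8236161, had 11 and 80 counts, or 1.11% and 3.32%, and no other base of that strand had any. The 2 libraries had all but 8236252 of these named positions in common, but their shares differed up to several-fold between libraries.

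The share of miR173 counts within 1 nt of the base-proximal end was 100% in both wild-type libraries (intervals 89.1% to 100% and 99.1% to 100%). It was 73% (70.2% to 75.8%) and 64.1% (62.2% to 66%) in fiery1. The means were 68.6% ± 6.31 in fiery1 and 100% ± 0 in wild type (SD, n = 2 each), a difference of -31.4 percentage points. The groups did not overlap, and the two-sided exact permutation p was 0.333, the smallest that 2 libraries against 2 can give. At the exact base-proximal position, without the 1-nt window, the fiery1 shares were 2.82% and 0.789% and both wild-type shares were 0%, since the main end lies 1 nt further. In hyl1, the 3 counts in replicate 2 were all in the window, 2 of them at 8236249.

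No miR173 end fell within 1 nt of the loop-proximal end in any library. In fiery1 these were 0 of 994 and 0 of 2408 counts, which allows shares of up to 0.302% and 0.125%. With a share of 0 in every library compared, the difference from wild type was 0 percentage points, and the test (exact permutation p = 1) could decide nothing. Primer positions were not given in the sources used here. A primer downstream of the hairpin, where short tags end, could not read a loop cut made after the cut at the base.

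Other precursors also had more end positions in fiery1. Among the 25 precursors with at least 20 counts of 26 nt or more in each wild-type and fiery1 library, 23 had more positions in both fiery1 libraries than in either wild-type library. Their median number of positions was 23 in both fiery1 libraries and 3 and 4 in wild type, so the 14 of miR173 stood below that fiery1 median. A single position in both wild-type libraries was seen in 3 of the 25, miR173 included. These counts were not adjusted for depth.

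**Figure D3:**
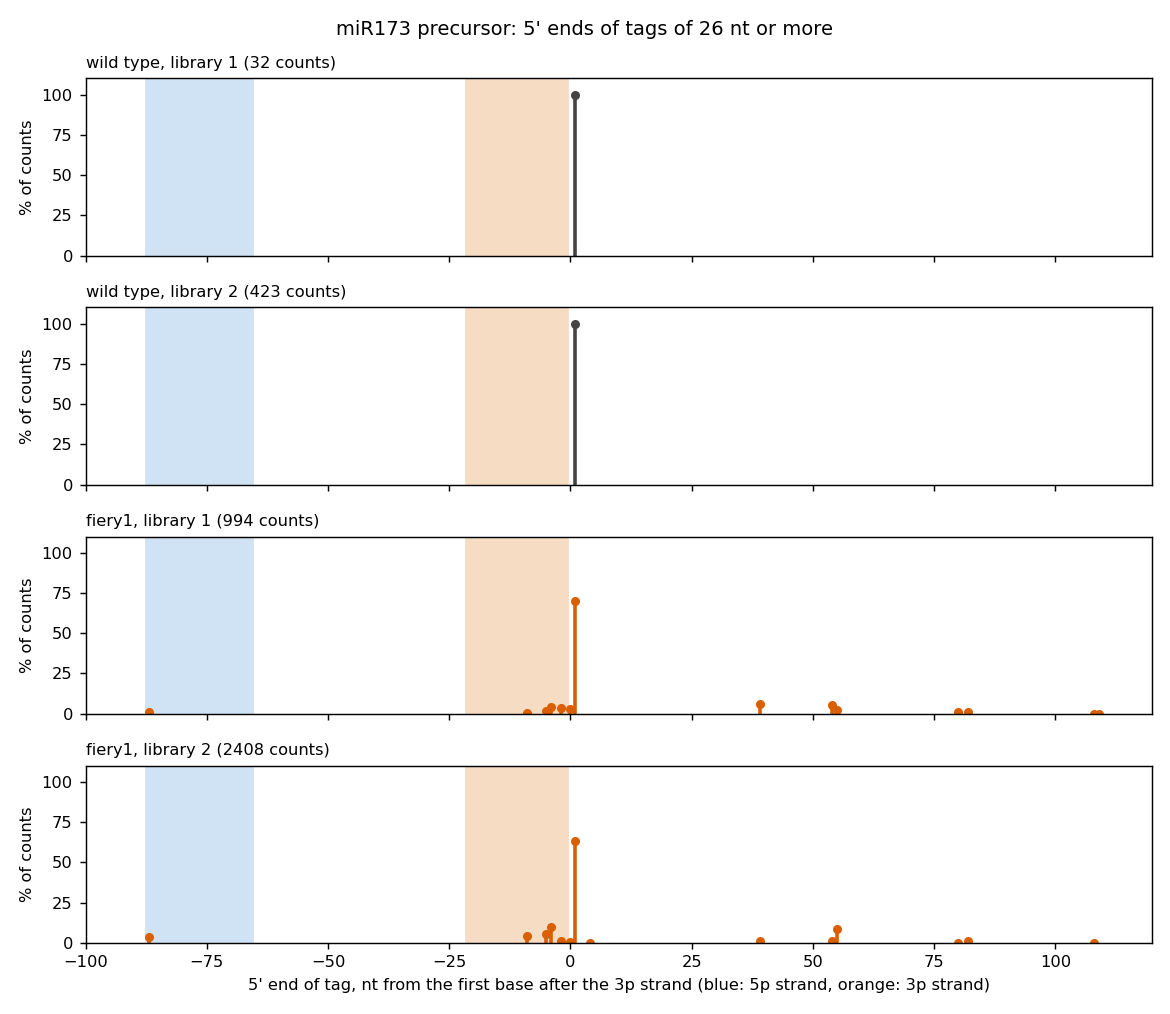
Share of miR173 counts at each 5′ end of tags of 26 nt or more, in percent of the precursor's counts in that library, against nt from the base-proximal end. Panels are the 2 wild-type and the 2 fiery1 libraries, and the shaded blocks are the 5p and 3p strands. Wild type had 100% of counts at offset 1, where fiery1 had 70.2% and 63.3%, with the remaining fiery1 counts in and after the 3p strand and at the first base of the 5p strand.

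Short miR173 tags, which begin far downstream of the hairpin, were counted 28 and 3 times in the wild-type libraries, and 27 and 46 times in those of fiery1. They were counted 0 and 12 times in the hyl1 libraries, and 96 and 7 times in the se libraries. As CPM, wild type had 1186 and 585, fiery1 had 1552 and 1734, hyl1 had 0 and 1187, and se had 372 and 16.3. Both fiery1 libraries were above and both se libraries below wild type, and hyl1 overlapped it. Against wild type the log2 fold change of fiery1 was -0.51 ± 1.47, that of hyl1 -0.93 ± 1.63 and that of se -2.92 ± 1.56 (edgeR, adjusted p = 0.876, 0.769 and 0.315). The fiery1 sign disagreed with the CPM order and was positive on library totals, at 0.85. Of 219 counts, 200 began at 8236363 with the tag shown here, which stood at 81.5% and 93.5% of short counts in fiery1, 99% and 42.9% in se, and 91.7% in hyl1 replicate 2. Wild type had 89.3% and 33.3% there. The low shares are of 7 counts in se replicate 2 and 3 in wild-type replicate 2.
miR173 main short tag, chr3:8236363-8236382: ggaaagtatctcattagggt

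For tags of 18 to 25 nt edgeR tested 78 precursors and called 0 in each comparison, among them 0 of the 2 members tested. For fiery1 (0.00%) 17 had an unadjusted p under 0.05 and DESeq2 called 8. For hyl1 (0.00%) 8 had an unadjusted p under 0.05 and DESeq2 called 1. For se (0.00%) these numbers were 14 and 4.

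The miR390a precursor, a source of the TAS3 trigger, had almost no tags of 26 nt or more in wild type and many in fiery1. The wild-type libraries held 1 and 2 counts, or 17.7 and 16.5 CPM. The fiery1 libraries held 1223 and 3117 counts, or 2697 and 3921 CPM. In hyl1 there were 114 and 0 counts, or 2527 and 0 CPM, and in se 2 and 181 counts, or 48 and 2203 CPM.

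The miR390a levels were 3309 ± 865 CPM in fiery1, 1264 ± 1790 in hyl1, 1126 ± 1520 in se and 17.08 ± 0.857 in wild type (mean ± SD, n = 2 each). The fiery1 libraries were above all others. Both se libraries were above wild type, but se replicate 1 with only 2 counts, or 48 CPM, under its floor of 71.98 CPM. The hyl1 libraries overlapped both se and wild type, with 1 library high and 1 at 0. Against the 3 wild-type counts, the pooled ratio was 206 in fiery1 (95% counting interval 70.5 to 1000), 95.4 in hyl1 (31.8 to 469.7) and 87.7 in se (29.5 to 429.1).

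These ratios did not pass the test across libraries, and the tests of miR390a were added after the others had been planned. The log2 fold change of miR390a was 7.09 ± 3.36 in fiery1 (edgeR, adjusted p = 0.157), where the median of the 74 precursors was 1.34. It was 5.78 ± 3.18 in hyl1 and 5.94 ± 3.20 in se (edgeR, adjusted p = 0.283 and 0.258). In fiery1 the call depended on the tool and on the libraries in the fit. The adjusted p was 0.0299 with DESeq2, which called 18 of 74 precursors. It was 0.0249 with wild type and fiery1 alone (edgeR), a fit that called 40 of 77. In the other edgeR alternatives with all 8 libraries the adjusted p was 0.122 to 0.251. Without hyl1 replicate 1 the remaining hyl1 library had no count of miR390a, so that the positive hyl1 value rests on replicate 1, and without se replicate 2 the se value was 0.83.

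The 2 libraries with high miR390a among hyl1 and se, hyl1 replicate 1 and se replicate 2, are also the 2 of 8 whose genotype label is spelled under a different tag name. The labels do not say that they were prepared apart, and no wild-type or fiery1 library shares that spelling. Among libraries with the common spelling, hyl1 replicate 2 held 0 counts and se replicate 1 held 2, near the 1 and 2 of wild type. The part of library preparation in these values was not tested.

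In fiery1 the miR390a ends concentrated at the base of the duplex. Position 16062044, the base-proximal end itself, held 975 of 1223 counts, or 79.7% (77.4% to 81.9%), and 2317 of 3117, or 74.3% (72.8% to 75.9%). In the predicted fold (-49.7 kcal/mol) a cut there leaves 2 bases beyond the partner of the first 5p base, as at the main end of miR173. The tag that begins there is shown as the carrier of the fiery1 signal.
miR390a main tag, chr2:16062044-16062094: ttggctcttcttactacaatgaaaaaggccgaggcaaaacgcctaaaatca
The single count of wild-type replicate 1 and 1 of the 2 counts of replicate 2 began at this base too.

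A second set of miR390a ends in fiery1 lay 4 nt below the duplex on both arms. On the 5′ arm, 16061967, 4 nt before the first 5p base, held 14.9% and 10.9%. On the 3′ arm, 16062048, 4 nt after the base-proximal end, held 3.11% and 8.82%. In the predicted fold this pair of positions is again offset by 2 bases. Position 16062057 held 0.981% and 2.6%, and no other position exceeded 1.38% in fiery1. The fiery1 libraries had 8 and 9 positions, 8 of them in both. In contrast to miR173, no fiery1 count of miR390a began within the 5p or 3p strand, among 1223 and 3117 counts.

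The hyl1 and se ends of miR390a differed from those of fiery1. In hyl1 replicate 1, 57 of 114 counts, or 50% (40.5% to 59.5%), began at the base-proximal end and the other 57 at 16062056, where fiery1 held none. In se replicate 2, 179 of 181 counts, or 98.9%, began at 16062091, 47 nt after the base-proximal end, and 0.552% began at that end. Those 179 tags of se ran to the last base shared by short tags, and in all libraries 213 of 4640 long counts did so. Each pattern comes from 1 library, so neither was compared by a test. No miR390a end fell within 1 nt of the loop-proximal end, 0 of 1223 and 0 of 3117 counts in fiery1, which allows up to 0.245% and 0.0962%.

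**Figure D4:**
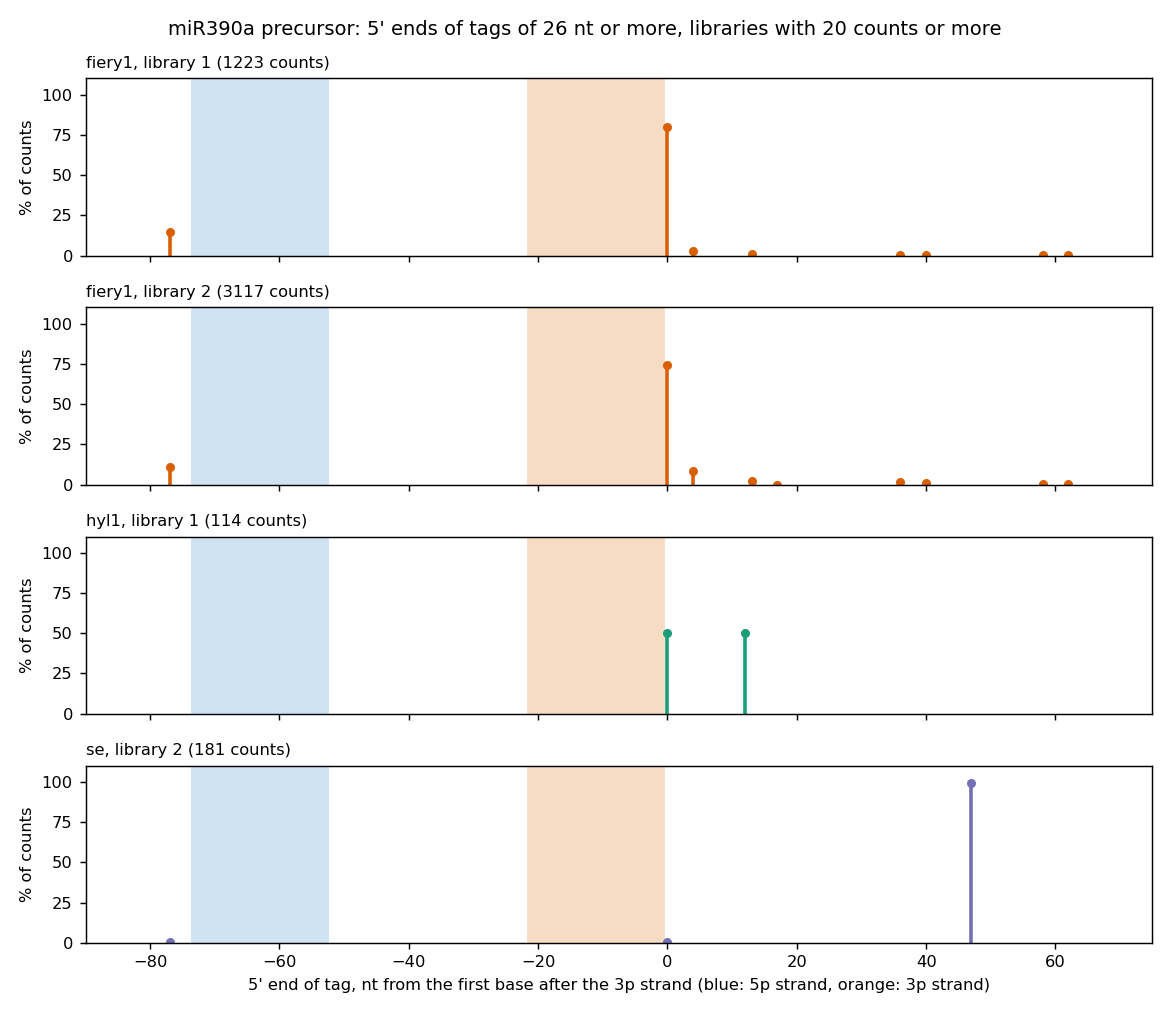
Share of miR390a counts at each 5′ end of tags of 26 nt or more, in percent of the precursor's counts in that library, against nt from the base-proximal end, for the 4 libraries with at least 20 such counts. The shaded blocks are the 5p and 3p strands. The base-proximal end held 79.7% and 74.3% in the fiery1 libraries and 50% in hyl1 replicate 1, while se replicate 2 had 98.9% at offset 47.

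Short miR390a tags were present in wild type and in se replicate 1, where long ones were nearly absent, and were not found in either hyl1 library. Wild type had 24 and 11 of them, fiery1 had 80 and 110, hyl1 had 0 and 0, and se had 489 and 584. As CPM, the wild-type libraries stood at 1016 and 2146, the fiery1 libraries at 4597 and 4146, and the se libraries at 1897 and 1364. The fiery1 libraries were above wild type in CPM, with a pooled ratio of 3.55 (95% counting interval 2.47 to 5.25), and se overlapped wild type. The fiery1 ratio of mean CPM was smaller, at 2.77. After the scaling used by edgeR, the mean levels were 3040 CPM in fiery1 and 2060 in wild type. The log2 fold change was 0.56 ± 0.92 in fiery1 and -0.05 ± 0.92 in se (edgeR, adjusted p = 0.763 and 0.983). The hyl1 comparison, without counts in hyl1, had an edgeR adjusted p of 0.0789. Only 545 short counts of any precursor were in hyl1 replicate 1 and 10107 in replicate 2, so the floor of 3 counts there is 5505 and 297 CPM. The absence in hyl1 replicate 1 was therefore not informative at this depth. The tag shown held 777 of 1298 short counts.
miR390a main short tag, chr2:16062117-16062135: tgtccatttaagctatctt

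The miR390b precursor, whose guide strand equals that of miR390a, had tags of 26 nt or more in fiery1 alone. There were 71 and 107 counts, or 157 and 135 CPM, and 0 in each of the other 6 libraries. By mean CPM fiery1 was at least 3.75-fold higher than wild type. Floors of 3 counts were 53 and 24.7 CPM in wild type but 66.5 and 116.5 in hyl1, so a level like that of fiery1 was close to the limit in hyl1 replicate 2. The ends had 2 positions in both fiery1 libraries. Position 23637055, 1 nt after the base-proximal end, held 11.3% and 72%, and 23637036, 2 nt into the 3p strand, held 88.7% and 28%. The order of the 2 positions was thus opposite in the 2 libraries. In the predicted fold (-57.2 kcal/mol) a cut before 23637055 leaves 2 bases beyond the partner of the first 5p base. The main ends of miR173 and miR390a leave 2 as well. The loop-proximal end and its neighbours held 0 of 71 and 0 of 107 counts, which allows up to 4.23% and 2.8%, although 23637036 lies 1 nt outside that window. Short tags were found once in hyl1 replicate 1, 55 times in se replicate 1 and once in se replicate 2.

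The miR391 precursor, whose guide resembles that of miR390 shifted by a base, was seen in few libraries. Tags of 26 nt or more numbered 91 in se replicate 1, or 2183 CPM, and 0 in the other 7 libraries, including the other se library. All 91 began at 24293255, 23 nt after the base-proximal end and within the long lower stem of the hairpin. None of the 91 was within 1 nt of the base-proximal or loop-proximal end, which allows up to 3.3% for each. In the predicted fold (-64.4 kcal/mol) this end lies 25 bases beyond the partner of the first 5p base, against 2 for the main ends of miR173 and miR390a and for 23637055 of miR390b.
miR391 main tag, chr5:24293255-24293305: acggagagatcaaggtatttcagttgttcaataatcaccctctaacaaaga
Short miR391 tags numbered 10 and 5 in fiery1 and 121 in se replicate 2, with 0 in the other 5 libraries. The fiery1 tags began at 24293340 and 24293341 and the se tags all at 24293339. The level of miR391 in se therefore rests on a different library in each length class.

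Across the 4 members, the end just after the duplex was the main end of miR173 and miR390a in each fiery1 library, and of miR390b in 1 of 2. It was 1 nt after the base-proximal end in miR173 and miR390b and at that end in miR390a. In the predicted fold, a cut there leaves 2 bases beyond the partner of the first 5p base in all 3. Ends within 1 nt of the loop-proximal end were not detected in any member at the depths given above, while miR390b had ends 2 nt from it. Loop cuts made after the cut at the base may be unreadable from a primer downstream of the hairpin, so such cuts may have been missed.

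Other precursors whose miRNAs are known in Arabidopsis to trigger secondary siRNAs on protein-coding transcripts were taken as the families miR161, miR393, miR400, miR472, miR825 and miR828. The files held 6 such precursors and 5 could be tested in each length class. Of these 5, edgeR called 0 in each of the 3 comparisons in each class. In fiery1, over tags of 26 nt or more, the log2 fold change was 7.04 for miR161 and 7.80 for miR393a, whose miRNA targets auxin receptor transcripts (edgeR, adjusted p = 0.0671 and 0.108). It was 0.21 for miR393b, -1.34 for miR825 and -3.65 for miR400. The median of these 5 was 0.21, against 1.34 over all 74 tested, and it was -0.46 in hyl1 and 0.02 in se, where the medians over all precursors were 0.00 and 0.10. Over tags of 18 to 25 nt their medians were -1.44, -8.29 and -0.78 in fiery1, hyl1 and se, against 0.29, -0.45 and 0.45 over all 78. That hyl1 median is the fitted value of miR393a, which had no short count in either hyl1 library, so it is no measured fold. The precursors of miR161 and miR825 had no short count in hyl1 either.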

How the data were processed

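SPARE reads were trimmed with cutadapt and referred to the TAIR10 build, per the submitters' processing notes. An aligner was not given in the sources used here. Values came from 8 files deposited by the authors, which give raw tag counts with precursor, position and length. No normalisation was applied by the authors, judged from whole numbers and unequal totals. There were 13 entries with a blank count, which were left out. Entries within 5 nt on the genome were summed (111 to 108 precursors), and tags were placed on TAIR10.1 by exact matching.

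Counts were summed per precursor and position, apart for tags of 18 to 25 nt and of 26 nt or more. They were tested with edgeR 4.0.16 (quasi-likelihood, TMM, filterByExpr minimum count 10, all 8 libraries, 1 term per genotype), with Benjamini-Hochberg adjustment over all precursors tested and a threshold of 0.05. The procedure was run on simulated counts with a single fixed spread for all precursors, which does not show how it performs at the spread of these libraries. Shares used exact permutation tests and Clopper-Pearson intervals (scipy 1.17.1), folds RNAfold 2.7.2, and expected positions at lower depth the hypergeometric formula. Alternatives were DESeq2 1.42.0, other scaling, no filter, fewer libraries and a replicate block. Named precursors were the members, the 3 most correlated with each and a list of other triggers, and named positions those with at least 5% of a member's counts in a library with at least 20. The members and lists were chosen with earlier results of these data known, and the tests of miR390a were added afterwards.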

Additional observations from a re-analysis of the deposited data

How the results depend on the processing

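Of 116 alternative values for 12 fold changes of miR173 and miR390a, 95 kept their direction and side of the threshold, 18 changed sign and 3 passed the threshold. Over tags of 26 nt or more, the fiery1 value of miR173 became 0.37 on library totals and 0.88 with the replicate block, and ranged from -1.06 to 2.10 with a library left out. That of miR390a passed with DESeq2 (7.03) and with only the 2 genotypes (7.10), and the se value of miR173 passed with DESeq2 (-9.55). The hyl1 value of miR390a ranged from -5.39 to 6.77 with a library left out. Over short tags, the fiery1 value of miR173 became 0.32 with RLE scaling, 0.85 on library totals, 0.34 with DESeq2, 0.10 with the replicate block and 0.02 with only the 2 genotypes, and ranged from -1.28 to 1.41 with a library left out. The hyl1 value of miR173 ranged from -9.98 to 1.20, and was 0.09 without hyl1 replicate 1. The se value of miR390a, near 0, became 0.01 with RLE scaling, 0.08 on library totals, 0.01 with DESeq2 and 0.13 without a filter, and ranged from -0.27 to 0.11 with a library left out. The lowest hyl1 values of miR390a and of miR173 here are fitted against a single hyl1 library at 0 and are no measured folds. The cause of the other changes was not tested. The base-proximal difference of miR173 was 1.8 points at the exact position, -9.3 over all tags and 0 over short tags, which cannot start there. The number of precursors called among tags of 26 nt or more ranged from 0 to 40 in fiery1 (15 as reported, 0 with the replicate block, 2 without wild-type replicate 2 and 0 without any other of those 4 libraries), 0 to 19 in hyl1 and 0 to 21 in se, and over short tags from 0 to 8, 0 to 2 and 0 to 6. Scaling on library totals moved the fiery1 median of all precursors from 1.34 to 1.91. Deviations of same-numbered libraries of different genotypes had correlations of -0.14 to 0.22 over tags of 26 nt or more and -0.25 to 0.22 over short tags. No pairing by number was thus seen, but this check cannot exclude it. Nor can it see a batch that crosses the replicate numbers. With only the 2 genotypes in the fit, miR390a was filtered out in hyl1 and in se over tags of 26 nt or more, and miR390a and miR173 in hyl1 over short tags. Fold changes of miR391 and miR390b were below the filter. Shares of miR391, and of miR173 in hyl1 and se, were not compared with wild type because a library on either side had under 20 counts.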

Other observations

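Precursors with the most similar levels over the 8 libraries were found for each member among 84 precursors, from log2(CPM + 1) of tags of 26 nt or more, as a description of points that share libraries, depth and genotype. For miR173 they were miR864 (Pearson r = 0.83), miR825 (0.76) and miR166e (0.75). For miR390a they were miR393a (0.88), miR164b (0.84) and miR172e (0.78). The precursor of miR393a had 10900 CPM in hyl1 replicate 1 against 77.7 in replicate 2, and 24 in se replicate 1 against 3790 in replicate 2, so it was high in the same hyl1 library and the same se library as miR390a. In hyl1, miR164b was split likewise, with 7400 CPM in replicate 1 against 77.7 in replicate 2. In contrast, it was higher in se replicate 1 (18200 CPM) than in replicate 2 (7750). The precursor of miR172e was at 48 CPM or below in all hyl1 and se libraries. In wild type, miR393a had 17.7 and 32.9 CPM and in fiery1 9730 and 6480. For miR390b, miR162b, miR171a and miR447a were the closest, and each had counts in fiery1 alone. For miR391, miR169f had r = 0.80 and miR394b and miR394a 0.57, which rest on se replicate 1.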
